A study of Mus musculus and Homo sapiens with 12 samples.

Results

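Exonic m5C peaks found in a single replicate were examined in mouse embryonic stem (mES) cells. Peaks of the 3 m5C-IP libraries on the same strand were joined if they shared 1 bp or more, a merged region was kept if it held peaks of 1 library only, and its midpoint had to lie in an exon of GENCODE release M21 on either strand. Of 35162 merged regions, 30355 held peaks of 1 library, and 3717 of these (12.2%) were exonic, 869 from replicate 1, 1353 from replicate 2 and 1495 from replicate 3. Another 13055 single-replicate regions were intronic and 13583 intergenic, and 448 exonic regions held peaks of 2 libraries and 142 of all 3.

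The cells were wild type and of embryo origin, and received no treatment beyond their medium, which contained LIF and the inhibitors CHIR99021 and PD0325901. Before the experiment they were cleared of feeder cells by passage on gelatin. Chromatin-associated RNA (caRNA), the RNA that stays with the chromatin fraction, was fragmented and either sequenced directly (Input, 3 libraries) or after pull-down with an anti-m5C antibody (m5C-IP, 3 libraries). Groups came from the library titles. The antibody field read "none" for the mES cell m5C-IP libraries too. The study describes its replicates as biological. The labels did not say whether they were separate cultures, and the spread given below is the spread between these libraries.

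5-Methylcytosine (m5C) in RNA is deposited by the NSUN family and by TRDMT1, and TET enzymes can oxidise it. In mRNA it is found in coding sequence and in both untranslated regions, and it also occurs in lncRNA and in transcripts of repeats. Antibody enrichment reports a window of about a fragment in length and does not resolve the modified base. A peak carries the strand of the reads from which it was called, so that an exonic peak can come from the annotated transcript or from RNA of the other strand.

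Each exonic region consisted of 1 peak, and 3243 of the 3717 (87.2%) had a width of exactly 150 bp, the length to which reads were extended before peak calling. Only 130 were 200 bp or wider and 32 reached 300 bp, with a maximum of 438 bp. To show what such regions contain, the 30 bases around the match to CNGGG nearest the midpoint are printed for some of the widest regions whose exon lay on the recorded strand, read 5′ to 3′ on that strand from GRCm38 (RefSeq). N is any base and capitals mark the match. For C130026I21Rik and Gm5144, which held no match, the bases around the midpoint are printed.
Rps6ka4, coding, chr19:6830620-6830649, minus strand: gcttctccctggaCGGGGaagcctggcaag
Ccdc96, coding, chr5:36485688-36485717, plus strand: aagagaagcagacCAGGGtggagaaagagt
Rnf121, 5′ UTR, chr7:102064969-102064998, minus strand: ggagccggaggtcCTGGGagaaacaggaaa
Adrb1, 3′ UTR, chr19:56723871-56723900, plus strand: ctgagccgctcccCAGGGgagagaggagat
C130026I21Rik, 3′ UTR, chr1:85112328-85112357, minus strand: aaaaccatccatacccccgctagagagaag
Lhx3, noncoding transcript, chr2:26202596-26202625, minus strand: tttgcttgggagcCAGGGccccatgggcat
Gm5144, lncRNA, chr15:11907046-11907075, plus strand: cttcccccagagaatctttaagtacctaaa
Gm13611, pseudogene, chr2:32271963-32271992, plus strand: tgcgggacatgatCCGGGaggtgtgcggct

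CNGGG was found on the recorded strand in 61.4% of the 3243 exonic regions of 150 bp, and in 50.3% of all 27093 merged regions of that width. On the other strand the shares were 59.5% and 48.4%, pooled over both relations to the gene. In regions on the gene's strand the share was 57.7% on the recorded strand and 63.2% on the other, and in regions on the opposite strand it was 63.1% and 57%, so that in either case the strand opposite to the gene held the sequence more often. CTCCA, the other sequence searched, was present on the recorded strand in 28.2% of the exonic regions and 20.5% of all regions, and on the other strand in 26.5% and 19.5%. The searches were not exclusive, since the end of CTCCA can begin a CNGGG, and CNGGG can overlap its own reverse complement. Exonic regions also had a higher GC content (given below), and its part in these shares was not tested.

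The Input libraries held 29007088 to 34752646 gene counts and the m5C-IP libraries 473398 to 592324, so that 3 counts stood for 0.0863 to 0.103 CPM (a gene's count scaled to the gene counts of its library) in Input and 5.06 to 6.34 CPM in m5C-IP. HTSeq summary lines, which hold records not assigned to a gene, took 19% to 19.3% of the Input and 71.4% to 71.7% of the m5C-IP records. Of 12 pluripotency markers, 11 exceeded 1 CPM in Input, with a median of 75.2 CPM and the highest level for Esrrb (793 CPM). Sox2 was listed at 0, and Sox2ot overlaps it on the same strand. Of 8 markers of feeder fibroblasts, 3 exceeded 1 CPM, led by Col1a1 at 29.4 CPM, and Lum was at 0. The summed level of the fibroblast markers was 54.6 to 56.9 CPM in Input and 71.8 to 114 CPM in m5C-IP, against 1929 to 1964 CPM and 758 to 934 CPM for the pluripotency markers, and no fibroblast marker hosted an exonic single-replicate region.

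The first comparison asked whether exons were over- or under-represented among the peaks that failed to recur. Exonic regions made up 11.4%, 12.1% and 12.9% of the regions found only in replicates 1, 2 and 3, and 11.5%, 12% and 11.5% of the regions of the same libraries that another library shared. The share of the single-replicate regions was higher in 2 of 3 libraries, with a mean difference of 0.49 percentage points ± 0.82 (SD, n = 3; exact two-sided sign-flip permutation test, p = 0.50). A shared region was counted in each library that held a peak of it, so that the 3 differences were not independent. A difference in either direction was not detectable, and 3 libraries cannot give a p-value below 0.25 in this test. The sign of the mean difference turned when peaks were merged without regard to strand (-0.015 points) and when only basic transcripts were used (-0.049 points). It was 2.24 points with only peaks wider than 150 bp, and 1.68, 2.51 and 1.18 points without replicate 1, 2 or 3, where fewer libraries could share a peak.

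Single-replicate regions were mostly isolated. Another library had a region on the same strand within 1 kb of 10.0%, 8.06% and 7.49% of the exonic regions of replicates 1, 2 and 3, a mean of 8.52% ± 1.32. The mean was 5.17% ± 0.38 for intronic and 7.40% ± 0.76 for intergenic single-replicate regions, and the exonic share was the higher in each of the 3 libraries (differences of 3.35 ± 1.03 and 1.12 ± 0.58 points; exact sign-flip permutation test, p = 0.25 for each, the smallest possible). At the edge of the rule, 103 exonic regions (2.77%) had a region of another library no more than 150 bp away. The closest pair lay in Btbd35f6 on the X chromosome, 3 bp apart. The smallest overlap that made 2 libraries share an exonic region was 2 bp, in Alox5ap, whereas the median overlap of the 447 shared exonic regions made of 2 peaks was 149 bp. The rule thus separated mostly coincident peaks from mostly distant ones, with few regions near its threshold.

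Coding sequence was the most frequent exon class. It held 1965 regions (52.9%), the 3′ UTR 464 (12.5%), the 5′ UTR 311 (8.37%), noncoding transcripts of protein-coding genes 302 (8.12%), lncRNA genes 378 (10.2%), pseudogenes 281 (7.56%) and genes of small RNA or other kinds 16. Exons on the recorded strand set the class, and those on the opposite strand only where the recorded strand had none. Where transcripts differed at a midpoint, coding sequence was given precedence over the UTRs, and the UTRs over other exons. The coding share was 51.1% (95% Wilson interval 47.8 to 54.4), 53.4% (50.7 to 56.0) and 53.4% (50.9 to 56.0) in replicates 1, 2 and 3, so that the libraries lay within each other's intervals. Intervals cover counting error only. The same order of classes, applied to both strands at once, put 28.6% of the 128.3 Mb of annotated exon bases in coding sequence, 25.9% in 3′ UTRs and 5.54% in 5′ UTRs. Classed in that way, 53.7% of the regions were in coding sequence.

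Relative to annotated length, coding sequence held 54.5 regions per megabase, 5′ UTRs 44.8, pseudogenes 28.2, lncRNA exons 16.0, noncoding transcripts of protein-coding genes 15.5 and 3′ UTRs 14.0, against 29.0 over all exons. In each library the whole 95% interval of the coding share lay above the coding share of exon bases, and that of the 3′ UTR share lay below the 3′ UTR share of exon bases. The 3′ UTR thus held more regions than the 5′ UTR in total and fewer per base. With UTRs given precedence over coding sequence the coding share was 47.2% and the 3′ UTR share 17.7%. Coding sequence also led among the exonic regions of 2 libraries (54.9%) and of all 3 (47.2%), and in the latter, with 142 regions, lncRNA genes held 19% and pseudogenes 16.2%.

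**Figure D1:**
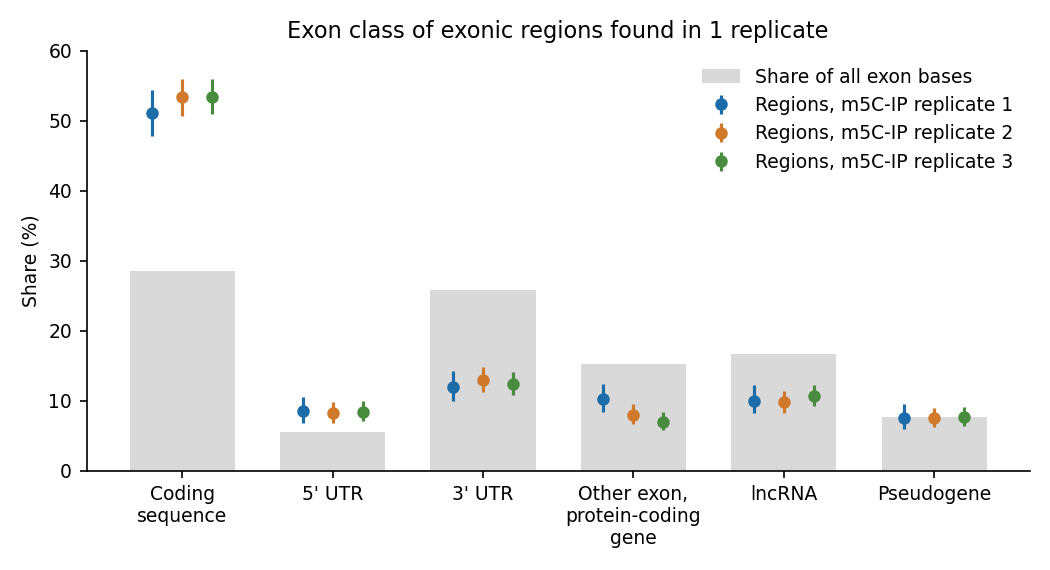
Share of exonic single-replicate regions in each exon class (y axis, percent) for each m5C-IP library (points, with 95% Wilson intervals), beside the share of all annotated exon bases in that class (grey bars). Small RNA and other genes (16 regions) are not drawn. In each library the points for coding sequence lie above the bar of 28.6% and those for the 3′ UTR below the bar of 25.9%.

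The first exon of a transcript held 1427 of the 3717 regions (38.4%) and the last exon 1993 (53.6%), where 1 exon can be the first of a transcript and the last of the same or another. A further measure was the distance to the start site, and 1160 (31.2%) had their midpoint within 500 bp of an annotated start site of the host gene. The longest exon at the midpoint had a median length of 796 bp, and for 1675 regions (45.1%) it was above 1 kb. For none of these measures is the share of all exon bases given, so they are not set against annotated exons as a whole. Exon bounds were crossed in many cases, since 2352 regions (63.3%) were wholly exonic, but 89.9% of all bases in the regions were exon bases.

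Exonic regions had a different base composition from intronic regions of the same libraries. The median GC content was 56.0% in each of the 3 libraries for exonic regions, and 49.7%, 50.0% and 50.0% for intronic regions. The difference of 6.10 percentage points ± 0.17 (SD, n = 3) had the same sign in 3 of 3 libraries (exact sign-flip permutation test, p = 0.25, the smallest possible). CpG dinucleotides had a median of 3.16, 3.33 and 3.33 per 100 bases in exonic regions and 1.33 per 100 bases in intronic regions of each library. Repeat-masked bases took 12%, 11.2% and 11.5% of exonic bases against 41.4%, 41.1% and 41.4% of intronic bases, a difference of -29.7 points ± 0.36 in the same test (p = 0.25, exact). Exons have more GC and fewer repeats than introns throughout the genome, and how far regions differed from other exon sequence was not tested.

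Within the exonic regions, composition followed the exon class. Median GC was 63.6% in 5′ UTRs, 58.0% in coding sequence and 52.0% in 3′ UTRs, with 52.7% in both lncRNA genes and pseudogenes. Median CpG per 100 bases was 6.0, 3.52 and 2.0 in the first 3 of these. Repeat-masked bases made up 5.81% of the bases in coding regions, 11.1% in 5′ UTRs, 18.1% in 3′ UTRs and 25% in lncRNA exons. A repeat-masked base was absent from 2206 regions (59.3%), and 74 regions were masked throughout. Exonic regions shared with another library had a median GC of 58.0% to 58.7% and 17.1% to 19.2% masked bases in the 3 libraries.

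**Figure D2:**
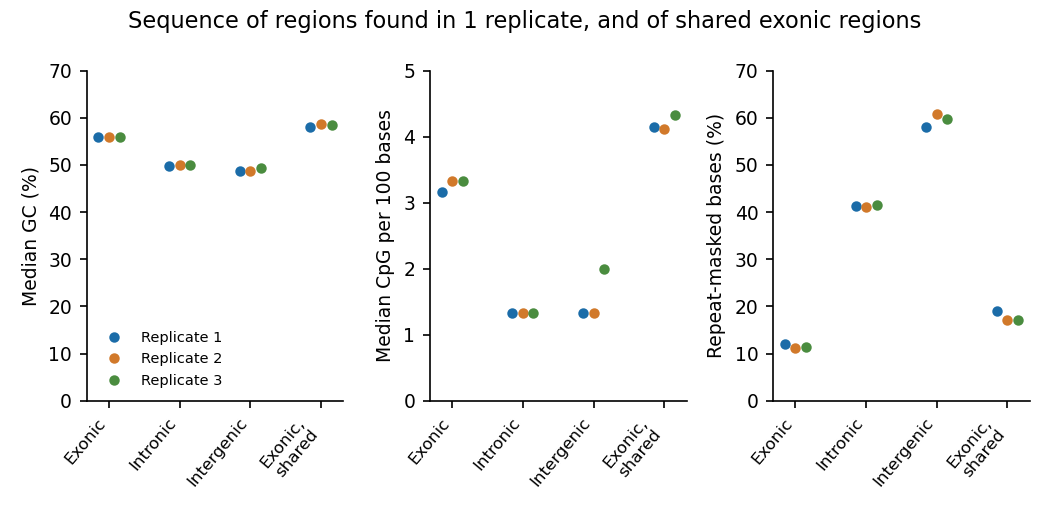
Median GC content (percent), median CpG dinucleotides per 100 bases and repeat-masked share of bases (percent) for exonic, intronic and intergenic regions found in 1 replicate and for exonic regions shared between libraries; each point is 1 m5C-IP library. The exonic points lie at 56.0% GC in all 3 libraries, above the intronic points, and at 11.2% to 12% masked bases, below them.

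The strand of the peak was then compared with the strand of the gene. Of the 3717 regions, 1328 lay on the strand of the exon, 2286 on the opposite strand and 103 in exons of both strands. Leaving out the last group, 38.1%, 36.1% and 36.5% of the regions of replicates 1, 2 and 3 were on the gene's strand. In intronic single-replicate regions the shares were 42.8%, 39.8% and 41.0%, and the exonic share was lower in 3 of 3 libraries, by 4.27 percentage points ± 0.57 (SD, n = 3; exact sign-flip permutation test, p = 0.25, the smallest possible). The difference was -1.34 points when the whole region had to lie in exons of 1 gene. In that setting, regions of a gene that were only partly exonic counted as intronic, so that both groups changed. In the exonic regions of 2 libraries the share was 40.5% and in those of all 3 it was 48.9%.

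Few of the opposite-strand regions were covered by a gene annotated on their own strand. An annotated gene body lay on the recorded strand at the midpoint of 179 of 2286 (7.83%). In the other direction, 178 of 1328 same-strand regions (13.4%) had a gene body on the opposite strand. Peaks on both strands of the same stretch were also few, since 129 exonic regions overlapped a merged region of the opposite strand, in 109 cases one with a peak of another library. Most opposite-strand regions thus had no called peak facing them on the strand of the gene.

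The share on the gene's strand differed between exon classes. It was 57.1% (95% Wilson interval 51.2 to 62.8) in pseudogenes, 48.1% (42.8 to 53.4) in lncRNA genes and 45.7% (40.2 to 51.3) in 5′ UTRs. It was 33.4% (31.4 to 35.6) in coding sequence, 31.1% (27.1 to 35.5) in 3′ UTRs and 25.1% (20.5 to 30.3) in noncoding transcripts of protein-coding genes. Pseudogenes, lncRNA genes and 5′ UTRs ranked above the other 3 of these classes in each library, at 54.5%, 48.8% and 47.2% in replicate 1 against 34.6%, 31.0% and 30.7%. First exons held 44.7% of the same-strand and 34.0% of the opposite-strand regions. GC content did not separate the strands, with a median of 56.0% on either.

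Strand agreement also varied with how much of the host gene was present in Input. Among 3032 regions in protein-coding genes, those in genes above 0 and up to 0.1 CPM were on the gene's strand in 50.5% of cases (155 on the gene's strand and 152 opposite), those in genes above 0.1 and up to 1 CPM in 46.1%, and those in genes above 1 and up to 10 CPM in 45.1%. The share was 22.3% in genes above 10 and up to 100 CPM (188 on the gene's strand and 655 opposite) and 10.7% (95% Wilson interval 8.17 to 13.8) in genes above 100 CPM (49 and 410). In replicates 1, 2 and 3 it was 45.4%, 41.3% and 49.9% in genes of at most 1 CPM and 19.7%, 20.3% and 15.2% in genes above 10 CPM. The difference was -27.1 percentage points ± 6.92 (SD, n = 3), with the same sign in 3 of 3 libraries (exact sign-flip permutation test, p = 0.25, the smallest possible). Levels are shares of a library, in which fewer cells with a transcript and less transcript per cell cannot be told apart.

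Both counts behind this share moved with the level. The share of protein-coding genes hosting an opposite-strand region was 5.10% of genes above 0 and up to 0.1 CPM, 7.37% and 8.88% in the next 2 classes, 9.32% above 10 CPM and 13.1% above 100 CPM. The share hosting a same-strand region was 4.85%, 6.39% and 7.16% up to 10 CPM, 2.87% above 10 CPM and 1.68% above 100 CPM. The most abundant transcripts thus hosted the fewest peaks on their own strand and the most on the other. Intronic regions also stood lower above 100 CPM (27.9% on the gene's strand) than above 10 and up to 100 CPM (39.7%). Exonic regions shared between libraries were at 25% and 9.23% in those 2 classes.

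Genes at 0 in Input stood apart, with 37.7% on the gene's strand (84, and 139 opposite) and values of 28.6%, 30.5% and 48.9% in the 3 libraries. Of the 200 such host genes, 85 (42.5%) were overlapped by another gene on their strand, against 22.4% of the 2336 host genes with counts. Reads in overlapping genes can go uncounted, so that a level of 0 was not taken as absence of the transcript. Whether the authors gave the Input library to the peak caller as its control was not given in the sources used here, and the part of such a control in the order above was not tested.

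**Figure D3:**
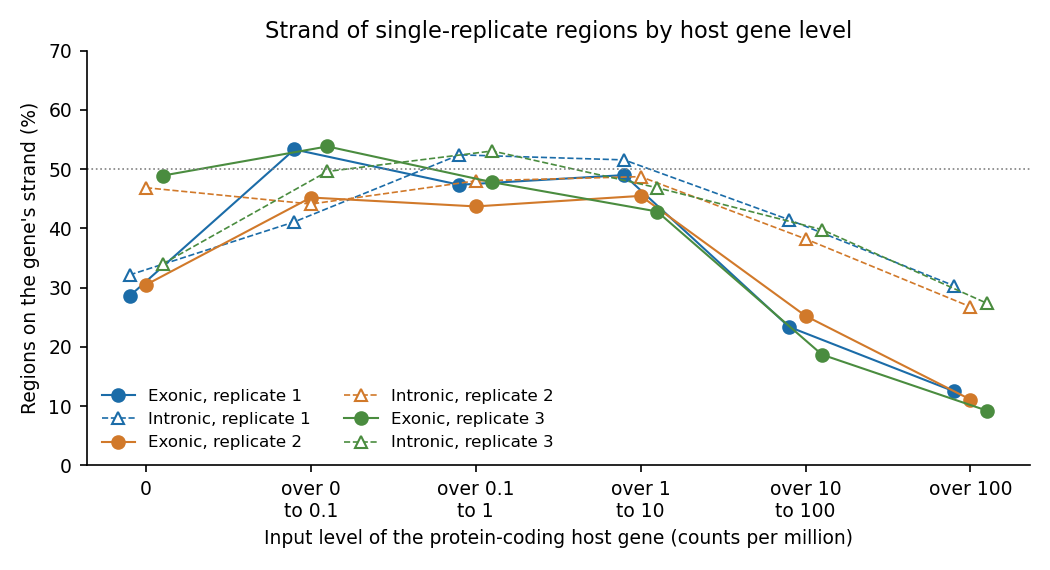
Share of single-replicate regions on the strand of their protein-coding host gene (y axis, percent) by the mean Input level of that gene (x axis, classes of CPM), for exonic (filled circles) and intronic (open triangles) regions of each m5C-IP library. The exonic points lie between 42.9% and 53.8% in the 3 classes above 0 and up to 10 CPM and between 9.24% and 12.5% above 100 CPM; the dotted line marks equal shares.

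Gene counts of the host were compared between the library that held the region and the others. A region was kept because 1 library alone held its peak. Where reads of a same-strand region enter the count of its gene, the rule itself raises the count in that library. The use of strand in these counts is not given, so reads of opposite-strand regions may enter them too. The values are given as a description, with no test. For regions on the gene's strand, the median m5C-IP count of the host genes was 18 in replicate 1 where replicate 1 held the region, against 12 and 15 in the other libraries. The values were 19 against 10 and 12 for regions of replicate 2, and 19 against 10 and 12 for those of replicate 3. For regions on the opposite strand the medians were 17 against 24 and 22.5, 20 against 17 and 21, and 20 against 14 and 19, in the same order. On the log2 scale after division by library size, with 0.5 counts added, hosts of same-strand regions were higher in the library holding the region by a median of 0.60, 0.61 and 0.60, which is about 1.5-fold. Hosts of opposite-strand regions had -0.02, -0.02 and 0.07.

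The mean difference between both kinds of region was 0.59, and it was 0.26 when only host genes above 10 CPM in Input were used. A host of a same-strand region had its highest m5C-IP level in the library holding the region in 62.0%, 63.5% and 59.7% of genes, against 29.5%, 33.1% and 36.4% for opposite-strand regions and 33.3%, 34.9% and 31.8% for all 29937 genes with a count in m5C-IP. The shares for opposite-strand hosts were near those of all genes. Whether gene counts include the reads under those regions depends on how strand was used in counting, which is not given.

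**Figure D4:**
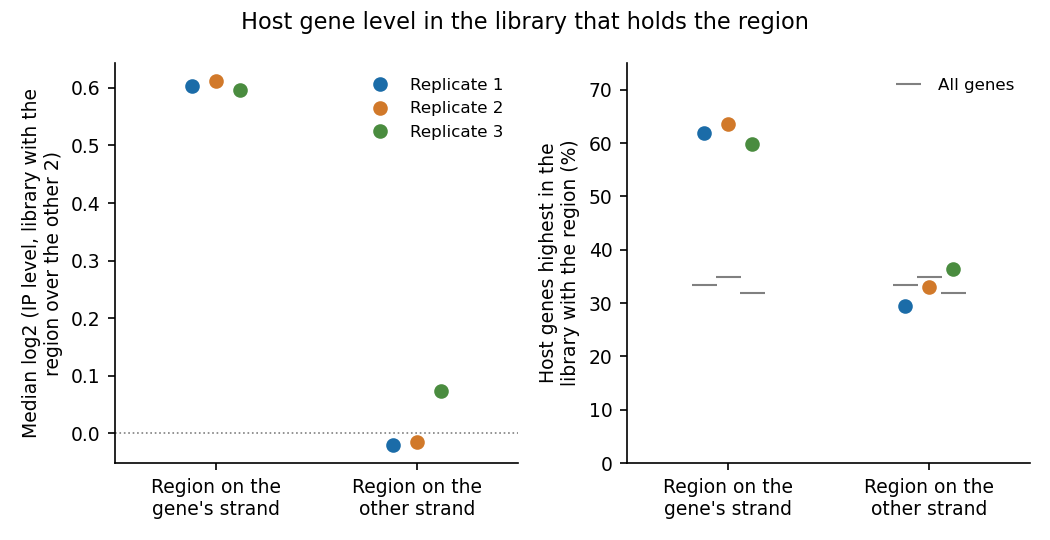
Left, median over host genes of the log2 ratio of the m5C-IP level in the library holding the region to the mean of the other 2; right, percentage of host genes with their highest m5C-IP level in that library; each point is 1 library, for regions on the gene's strand and on the other strand, and grey bars give all genes. The same-strand points lie at 0.60 to 0.61 and 59.7% to 63.5%, and the opposite-strand points at -0.02 to 0.07 and 29.5% to 36.4%.

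The widest same-strand regions are given with the counts of their hosts. As above, the rule itself can raise the count in the library holding the region, so that these counts are a description. Regions were classed by their midpoint and could run past the exon. Rps6ka4, a kinase of the MAPK pathway, had the widest same-strand coding region (359 bp, chr19:6830459-6830817, replicate 3), of which 180 bp were exonic. Its m5C-IP counts were 7, 7 and 32 in replicates 1 to 3. Ccdc96, a coiled-coil protein, held a region of 347 bp wholly inside a coding exon (chr5:36485485-36485831, replicate 3), with counts of 8, 2 and 19. Alox12e, an epidermal lipoxygenase, held one of 334 bp (253 bp exonic, chr11:70322241-70322574, replicate 1), with counts of 15, 10 and 5. In each of the 3 genes the highest count was in the library that held the region.

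The widest 5′ UTR regions lay in Rnf121, a ubiquitin ligase of the secretory pathway (322 bp, replicate 3), in Fhad1 (295 bp, replicate 1) and in Gper1, a membrane receptor for oestrogen (265 bp, replicate 2). Of these widths, 289, 134 and 159 bp were exonic. Their counts in replicates 1 to 3 were 29, 19 and 35 for Rnf121, 63, 89 and 52 for Fhad1 and 18, 25 and 8 for Gper1. The library of the region had the highest count for Gper1 and the middle one for Fhad1. For Rnf121 its count was the highest, but replicate 1, the library with the fewest gene counts, was level with it after scaling (61.3 CPM against 59.1 CPM). Rnf121 was the only one of the 3 with an Input level above 10 CPM (105 CPM).

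In 3′ UTRs the widest regions were those of C130026I21Rik (291 bp, replicate 2), Adrb1, a beta-adrenergic receptor (225 bp, replicate 2), and Pms2, a mismatch repair protein (198 bp, replicate 3). Counts were 71, 141 and 120 for C130026I21Rik, 3, 14 and 6 for Adrb1 and 33, 21 and 41 for Pms2, and were highest in the library of the region in all 3. After scaling, Pms2 was level in replicates 1 and 3 (69.7 and 69.2 CPM). The region of Adrb1 lay wholly in its 3′ UTR, and the gene had 1 count in each Input library.

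Noncoding transcripts of protein-coding genes gave regions of 291 bp in Lhx3, a homeobox factor of pituitary and motor neurons (replicate 3), 211 bp in Man2a2, a Golgi mannosidase (replicate 1), and 185 bp in Aif1l (replicate 2). The first 2 were wholly exonic, and 104 bp of the region in Aif1l were. Counts were 12, 14 and 26 for Lhx3, 29, 25 and 22 for Man2a2 and 4, 31 and 9 for Aif1l. The library of the region had the highest count for each. Lhx3 was close to absent from Input (6, 3 and 4 counts).

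Among lncRNA genes, Gm5144 held a region of 338 bp (chr15:11906892-11907229, replicate 2) with m5C-IP counts of 1, 18 and 5 and Input counts of 0, 1 and 0. Gm48284 held one of 203 bp in the same library, with m5C-IP counts of 2, 15 and 0. AC132455.2, with a region of 296 bp (163 bp exonic) in replicate 3, had no entry in the count tables. The widest pseudogene regions lay in Gm9029 (338 bp, replicate 2), Gm15793 (325 bp, replicate 3) and Gm13611 (315 bp, replicate 2). Their m5C-IP counts in replicates 1 to 3 were 0, 0 and 2, then 0 in each library, then 0, 6 and 8. For Gm9029 and Gm13611 the highest count was thus not in the library of the region. Reads from a processed pseudogene and its parent can be split between them or left uncounted, so that these hosts are uncertain. The 16 regions in genes of small RNA and other kinds included Rnu3a, a small nucleolar RNA of pre-rRNA processing, at 0 counts in all 6 libraries.

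The 3717 regions fell in 3257 host genes, of which 2589 were protein-coding, 378 lncRNA genes and 263 pseudogenes. A single region was found in 2794 of them (85.8%), 372 had 2 and 91 had 3 or more. Regions of at least 2 libraries, at different positions, were found in 329 host genes, and in 29 all 3 libraries contributed. Protein-coding host genes had a median Input level of 5.46 CPM, against 3.11 CPM for all 21918 protein-coding genes with an entry, and 34.1% of them were at or below 1 CPM against 42.3% of all.

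Among the host genes with the most regions, Zfp316, a zinc-finger gene, held 7 regions within 11.9 kb, with 4 from replicate 1 and 3 from replicate 3, and 5 of them were on the opposite strand. Its m5C-IP counts were 56, 77 and 86, and replicate 2, which held none of these regions, lay between the other libraries. Gm10717 also held 7 regions, 5 of them opposite. Between 91.3% and 100% of their bases were repeat-masked, with GC from 33.3% to 37.3%, and the gene had 5, 5 and 2 counts in Input and 295, 381 and 251 in m5C-IP. Near-identical copies can share such reads, so that the assignment to Gm10717 is uncertain.

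Prkcq, the theta isoform of protein kinase C, held 5 regions, 2 of them on its own strand. In coding sequence, a region of 308 bp on the gene's strand in replicate 3 (chr2:11290337-11290644) faced one of 150 bp on the opposite strand in replicate 2 (chr2:11290393-11290542). The m5C-IP counts of Prkcq were 46, 31 and 127 in replicates 1, 2 and 3. They were highest in the library with the same-strand region of 308 bp, which the rule itself can bring about. The other same-strand region of Prkcq, of 150 bp, was in replicate 1. Gm9048 held 5 regions within 1.76 kb, 4 of them from replicate 2, with m5C-IP counts of 0, 1 and 0.

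Daglb, a diacylglycerol lipase, and Dip2b each held 5 regions, with 4 on the opposite strand in each. Pcnx3 held 5 regions in coding sequence, all on the opposite strand, at an Input level of 74.4 CPM, and its m5C-IP counts were 36, 60 and 25. The lncRNA gene AC160336.1 held 5 regions over 67.3 kb, 4 of them opposite. Tecpr1, an autophagy factor, held 4 regions, of which 3 were opposite. Of these 9 genes, 7 were higher in m5C-IP than in Input in edgeR, where 39.9% of all genes tested were higher and 42.0% lower. Peaks and counts come from the same m5C-IP reads, so that this number is only a description. Pcnx3 had a fitted log2 ratio of -1.0 ± 0.19 (SE), with an adjusted p of 0.000171 in edgeR. Its ratio was 0.01 under scaling by library size alone. Gm9048 had too few counts to be tested.

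Host genes were next compared between m5C-IP and Input. Of the 3257 hosts, 3230 had an entry in the count tables and 2508 passed the filter on low counts. A gene with 0 counts in Input could pass this filter through m5C-IP alone, and could then only come out higher. Myh1 did so, with 12, 10 and 10 counts in m5C-IP, and the number of such hosts is not given. At an edgeR adjusted p under 0.05, 1343 (53.5%) were higher and 817 (32.6%) lower in m5C-IP. Over all 20244 genes tested, 39.9% were higher and 42.0% lower. With scaling by library size alone, 65.4% of hosts were higher and 16.1% lower, and no share of all genes is given to set beside them. The median log2 IP/Input of all genes moved from -0.17 to 0.83. Relative to that median, hosts stood at 1.20 on the log2 scale under TMM, RLE and library size scaling.

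The ratio of a host depended on the strand of its regions. Hosts with regions on their own strand only had a median log2 IP/Input of 3.78 above that of all genes, and 638 of 802 tested (79.6%) were higher and 77 (9.60%) lower. Hosts with regions on the opposite strand only had a median of -0.26 relative to all genes. Of these, 553 of 1516 (36.5%) were higher and 722 (47.6%) lower, near the shares of 39.9% and 42.0% over all genes. With scaling by library size alone the order of these calls turned, with 749 (49.4%) higher and 380 (25.1%) lower. Their median relative to all genes was -0.25 under that scaling. Hosts with regions on their own strand only then had 718 (89.5%) higher and 20 (2.49%) lower. Peaks and counts come from the same m5C-IP reads, and hosts without Input counts could enter the test through m5C-IP alone. Hosts with regions on their own strand only are thus no independent evidence of enrichment.

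**Figure D5:**
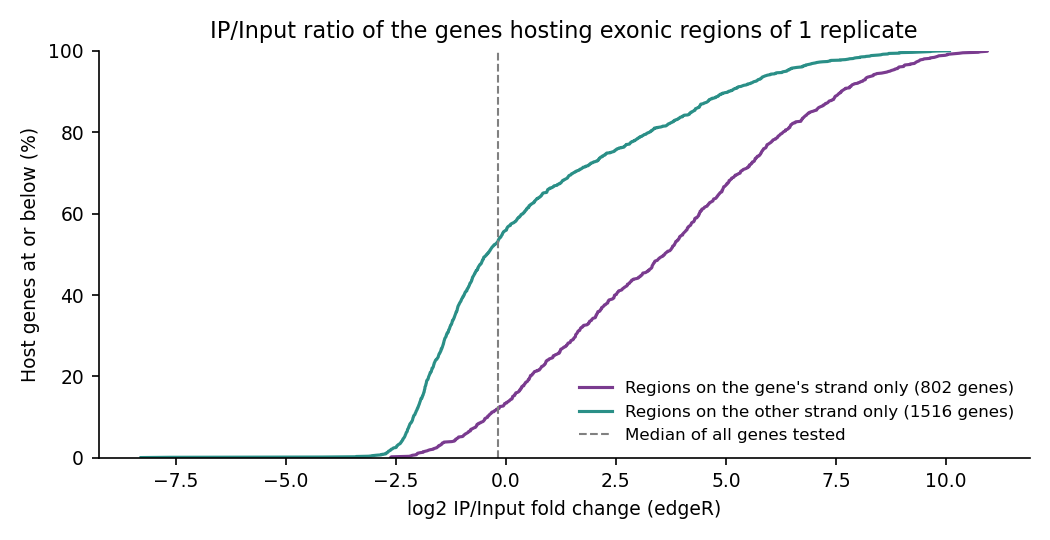
Cumulative distribution of the log2 IP/Input fold change (x axis, edgeR with TMM scaling) over host genes with regions on their own strand only and on the other strand only; the y axis is the percentage of host genes at or below a value. The same-strand curve lies to the right throughout most of its range, and the dashed line marks the median of all genes tested (-0.17).

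Gene lists for m5C metabolism and for stem cells held few hosts each. Of 20 writers, erasers and readers of m5C and their partners, 3 (15.0%) hosted an exonic single-replicate region, against 11.8% of all 22028 protein-coding genes. Tet3, an m5C and DNA demethylase, held 1 region on its own strand (replicate 2), with m5C-IP counts of 28, 54 and 74. Mbd5, a methyl-CpG-binding family member, and the tRNA methyltransferase gene Trdmt1 each held 1 on the opposite strand. Of the 12 pluripotency markers, Esrrb and Tbx3 held 1 opposite-strand region each.

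Abundant nuclear and splicing genes hosted regions on the opposite strand. The SR splicing list had 4 hosts among 16 annotated genes (25%, against 11.8% of all protein-coding genes), Son, Srrm1, Srsf5 and Tra2a. They held 1 region each, all opposite, at Input levels of 195 to 616 CPM. Of all protein-coding genes above 100 CPM, 13.1% hosted an opposite-strand region. The Polycomb list had 3 hosts of 28 (10.7%), Ezh1, Jarid2 and Phc1, again all opposite. Of 18 chromatin lncRNAs, 3 were hosts (16.7%, against 2.83% of all 13374 lncRNA genes), with a median Input level of 335 CPM. Neat1, which scaffolds paraspeckles, held 2 regions and the imprinted Meg3 held 1, all opposite, and the imprinted H19, at 0.0898 CPM in Input, held 1 on its own strand.

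Cytosolic ribosomal proteins had 4 hosts of 93 (4.30%, against 11.8% of all protein-coding genes). The 3 above 10 CPM in Input, Rps16, Rps27a and Rps6, held an opposite-strand region each. Rpl36-ps4, a predicted copy at 0.0115 CPM, held the only same-strand region of this list, in replicate 2, with m5C-IP counts of 0, 8 and 0, and reads shared with its parent gene make this host uncertain. Histone genes had 2 hosts of 83 (2.41%), H2afy and H3f3a, both opposite. The list of nucleolar and translation factors, with Ncl and Npm1, had 0 hosts of 8. Over these lists and that of the fibroblast markers, 19 of 22 regions lay on the opposite strand. Among all regions in protein-coding genes above 100 CPM, 410 were opposite and 49 on the gene's strand. Above 10 and up to 100 CPM, 655 were opposite and 188 on the gene's strand. The listed hosts do not all belong to these classes, since 3 are lncRNA genes and some protein-coding ones lie lower, such as Trdmt1 at 9.39 CPM. Of the 20 tested hosts, 18 were lower and 2 higher in m5C-IP at the edgeR threshold above. Over all genes, 42.0% were lower and 39.9% higher. With library size scaling 15 hosts were lower and 2 higher, and the share of all genes under that scaling is not given.

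Zinc-finger genes named Zfp had 35 hosts of 397 (8.82%, against 11.8% of all protein-coding genes) with 46 regions, 12 on the gene's strand and 34 opposite. Among the 34 tested, 10 were higher and 11 lower in m5C-IP, beside 39.9% and 42.0% of all genes. With library size scaling 16 were higher and 5 lower, and the share of all genes under that scaling is not given. Zfp316 (above) and Zfp853 led by IP/Input among those named, and Zfp853 held a same-strand and an opposite-strand region, both in replicate 2, with m5C-IP counts of 39, 40 and 46. Zfp652 and Zfp46 held 2 opposite-strand regions each, at 120 and 8.12 CPM in Input.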

How the data were processed

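The authors trimmed reads with Trimmomatic 0.39, aligned them with HISAT2 2.1.0 to mm10 with spike-ins, removed duplicates, separated strands and called peaks on each strand of each library with MACS2, reads being extended to 150 bp. Peak files were deposited as positions with a strand, in which no score was used here. The deposited counts are raw HTSeq counts per gene. Their use of strand is not given in the sources used here.

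Repeated peak lines (134 to 169 per library) were counted once. Exon classes came from GENCODE M21 (the study names M19), positions and sequence from GRCm38. Of host gene identifiers, 99.2% matched the counts. Per-library values were compared by exact two-sided sign-flip permutation tests. Counts were tested with edgeR 4.0.16 (TMM, filterByExpr, glmQLFTest, Benjamini-Hochberg at 0.05), as IP against Input over 6 libraries. Intervals are 95% Wilson. The merging of peaks and the edgeR test were tested on simulated data. K562 libraries were not used here.

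The members and gene lists were chosen with earlier results of these data known. Named genes were the 10 hosts with most regions (ties by summed width; 1 of them is not reported here), the 3 widest same-strand regions per exon class, and up to 4 hosts per list. Host level classes and the comparison between libraries were added after the data were seen.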

Additional observations from a re-analysis of the deposited data

How the results depend on the processing

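The number of exonic single-replicate regions was 3717; it was 2373 when the whole region had to lie in exons of 1 gene and 661 when only peaks wider than 150 bp were used, since both settings leave out regions by construction, and 2536 to 3091 with 1 library left out. The difference in exonic share between single-replicate and shared regions (0.49 points) turned to -0.015 when strand was ignored and -0.049 with basic transcripts, and ranged from 1.18 to 2.51 with 1 library left out; the cause was not tested. The differences from intronic regions in strand, GC and masked bases kept their sign under every setting run. Class shares moved. Coding sequence was 47.2% with UTRs first and 58.3% with basic transcripts. The 5′ UTR was 8.80% with UTRs first, 8.56% with both strands at once and 8.80% with basic transcripts, and the 3′ UTR 17.7% with UTRs first and 13.2% with basic transcripts. lncRNA genes were 9.23% with both strands at once and 10.9% with basic transcripts, and pseudogenes 7.43% and 8.35%. With 1 library left out, 5′ UTRs took 8.41% to 8.79%, 3′ UTRs 11.8% to 12.6% and pseudogenes 7.44% to 7.69%. Host genes higher in m5C-IP numbered 1343, 1025 to 1289 with 1 library left out, 1621 with DESeq2 and 790 when only hosts on the recorded strand were counted. For these alternatives the number tested and the share over all genes are not given, so the counts have no background. Same-numbered m5C-IP and Input libraries deviated together with correlations of 0.018 to 0.027, whereas libraries of different numbers had -0.0243 to -0.00114. The main fit did not pair libraries, and the low correlations do not show that pairing was absent. With the replicate block the number of host genes higher in m5C-IP was 1243. The strand difference between high and low host genes was -17.9 to -30.2 points over its alternatives, all of the same sign. With 473398 to 592324 gene counts per m5C-IP library, a peak missing from a library was not shown to be absent there.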
